A study of Mus musculus with 6 samples.

Results

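CC chemokine ligands are small secreted proteins that draw leukocytes into tissue, and 10 of their genes were measured in mouse liver 24 hours after an injection of CCl4. The 10 genes are *Ccl2*, *Ccl3*, *Ccl4*, *Ccl5*, *Ccl6*, *Ccl7*, *Ccl9*, *Ccl24*, *Ccl25* and *Ccl27a*, taken by name from the 24346 genes of the deposited RNA-seq table. RNA came from whole liver of 3 male mice with the genotype wt (*med23* f/f) and 3 with the genotype med23 ko (*med23* Δli), all C57/BL6, 8 weeks old and given CCl4 at 0.6 µl per g body weight in sunflower oil by the intraperitoneal route. CCl4 is a hepatotoxin that kills the hepatocytes around the central veins. Both groups carry the floxed *Med23* allele, and in the *med23* Δli mice an Albumin-driven Cre removes it in hepatocytes, so that other cells of the liver keep the gene. Livers without CCl4 were not analysed here, so no value below measures induction by CCl4 itself. The question asked of the comparison was how these ligands differed between the 2 genotypes after the same dose of CCl4.

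CC ligands are named for a pair of adjacent cysteines near the start of the mature protein, and they act through G protein-coupled CC receptors on leukocytes. *Ccl2* and *Ccl7* attract monocytes through *Ccr2*, and *Ccl3*, *Ccl4* and *Ccl5* attract macrophages, T cells and NK cells. These 5 were taken as inducible ligands, since cytokines and microbial products switch them on through NF-kB and interferon-regulated factors in hepatocytes, macrophages and lymphocytes. *Ccl6*, *Ccl9*, *Ccl25* and *Ccl27a* were taken as constitutive ligands: *Ccl6* and *Ccl9* are made by resting myeloid cells and bind *Ccr1*, while *Ccl25* and *Ccl27a* guide lymphocytes to gut and skin through *Ccr9* and *Ccr10*. *Ccl24* attracts eosinophils through *Ccr3*, is raised by type 2 cytokines in macrophages, and was put in neither class.

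The coding sequence around the adjacent cysteines is shown for 4 inducible ligands and for *Ccl6* and *Ccl9*, because it is the feature that makes all of them members of the family. It was read from the GENCODE M21 transcripts of mm10, 5′ to 3′, with the cysteine codons in capitals.
Ccl2: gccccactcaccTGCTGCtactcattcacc
Ccl7: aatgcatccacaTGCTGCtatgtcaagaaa
Ccl4: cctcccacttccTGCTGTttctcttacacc
Ccl5: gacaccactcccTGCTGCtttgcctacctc
Ccl6: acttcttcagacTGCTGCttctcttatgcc
Ccl9: gactcttcagatTGCTGCctgtcctataac
The codon after the pair codes for phenylalanine in *Ccl4*, *Ccl5* and *Ccl6*. It codes for another residue in *Ccl2*, *Ccl7*, *Ccl9*, *Ccl24*, *Ccl25* and *Ccl27a*. The inducible ligands thus did not all share this codon, and *Ccl6* of the constitutive class had it.

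Values are FPKM (fragments counted per length of transcript and per depth of the library), which allow levels to be compared between genes. The deletion was not visible in these libraries. *Med23* was at 3.42, 2.97 and 4.14 FPKM in wt livers and at 3.40, 3.40 and 2.91 FPKM in those labelled *med23* Δli, and the groups overlapped (log2 fold change −0.11, SE 0.17, limma adjusted p = 0.69). The table gives 1 value per gene and does not separate the floxed exon from the rest or hepatocytes from other cells. Whether the genotype labels are right cannot be settled from it, and *med23* Δli livers below are the livers labelled so. The files do not give the depth of each library. The number of genes listed at 0 ranged from 7628 to 9341, and the 10 most abundant genes took 17.1% to 20.3% of all FPKM in wt livers and 11.9% to 13.7% in *med23* Δli livers. The library of *med23* Δli replicate 2 stood apart in adipocyte genes, with *Adipoq* at 5.65 FPKM, *Plin1* at 2.76 FPKM, *Ucp1* at 2.29 FPKM and *Cfd* at 23.8 FPKM, where no other liver exceeded 0.244 FPKM for any of them. Results are therefore also given without it where a ligand moved.

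Genes were tested where their 6 livers averaged 0.5 FPKM or more, and all 10 ligands were among the 11956 genes tested. Of the 5 inducible ligands, *Ccl2*, *Ccl3*, *Ccl5* and *Ccl7* rose in the livers labelled *med23* Δli (4 of 10 ligands in all, limma adjusted p under 0.05), and *Ccl4* did not pass the test. None of the 4 constitutive ligands passed it, and none of the 10 fell. Among all genes tested, 11.6% rose and 9.48% fell, 21.1% together. *Ccl3*, *Ccl5* and *Ccl7* rose more than 2-fold (3 of 10), a call made for 4.45% of all genes tested. The difference of *Ccl3* fell under 2-fold with a pseudocount of 1 (0.77 on the log2 scale) and without *med23* Δli replicate 1 (0.98). The median log2 fold change was 1.34 for the 5 inducible ligands and −0.27 for the 4 constitutive ligands, beside 0.02 for all genes tested. Without *med23* Δli replicate 2, 1 of the 10 ligands (*Ccl5*) was called, and over all genes 487 rose and 442 fell. These are values of whole liver, in which more or fewer cells of a type and more or less RNA per cell cannot be told apart.

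*Ccl5*, the ligand with the largest change, was at 7.80, 3.57 and 6.36 FPKM in wt livers and at 53.8, 36.5 and 23.6 FPKM in *med23* Δli livers. Every *med23* Δli liver was above every wt liver, and the lowest *med23* Δli liver was replicate 3. The means were 5.91 ± 2.15 and 38.0 ± 15.1 FPKM (SD, n = 3 each), a ratio of 6.42. On the log2(FPKM + 0.1) scale the difference was 2.65 (SE 0.36, 95% interval 1.83 to 3.47, limma adjusted p = 0.0043). *Ccl5* stayed past the threshold in all 15 other settings and subsets tried, with differences of 2.33 to 2.95 and adjusted p from 0.0039 to 0.018.

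*Ccl2*, the main monocyte attractant, was at 13.9, 11.4 and 15.2 FPKM in wt livers and at 33.5, 27.8 and 17.3 FPKM in *med23* Δli livers. The groups did not overlap, but *med23* Δli replicate 3 lay close to wt replicate 3. The difference was 0.91 on the log2 scale (SE 0.24, 95% interval 0.35 to 1.48, limma adjusted p = 0.036). *Ccl7*, which lies next to *Ccl2* in the genome and shares its receptor, was at 3.45, 1.17 and 3.07 FPKM in wt livers and at 10.05, 8.38 and 5.80 FPKM in *med23* Δli livers. No liver of one group reached the other, and wt replicate 2 was low. The difference was 1.72 on the log2 scale (SE 0.39, 95% interval 0.82 to 2.62, limma adjusted p = 0.021). The call for *Ccl2* was lost without wt replicate 1 (adjusted p = 0.076), wt replicate 2 (0.090), *med23* Δli replicate 1 (0.119) or its replicate 2 (0.113), and that for *Ccl7* without *med23* Δli replicate 1 (0.079) or replicate 2 (0.071). All these differences kept their sign.

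*Ccl3*, a ligand of *Ccr1*, was at 0.564, 0.501 and 0.931 FPKM in wt livers and at 2.99, 1.66 and 1.13 FPKM in *med23* Δli livers. It was among the lowest of the 10 ligands in both groups, which did not overlap. The difference was 1.34 on the log2 scale (SE 0.37, 95% interval 0.48 to 2.21, limma adjusted p = 0.040), and the call was lost without wt replicate 1 (0.099), wt replicate 2 (0.097), *med23* Δli replicate 1 (0.132) or its replicate 2 (0.101). *Ccl4*, its neighbour in the genome, was at 1.64, 2.52 and 1.67 FPKM in wt livers and at 7.44, 4.98 and 2.51 FPKM in *med23* Δli livers. The lowest *med23* Δli liver was just under the highest wt liver. The difference was 1.21 on the log2 scale (SE 0.37, 95% interval 0.36 to 2.07) and did not pass the test (limma adjusted p = 0.053). Without *med23* Δli replicate 3 it passed (difference 1.63, adjusted p = 0.027).

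*Ccl24* was at 0.623, 1.16 and 0.708 FPKM in wt livers and at 1.606, 1.498 and 1.443 FPKM in *med23* Δli livers. The *med23* Δli livers lay close together and above all wt livers. The difference of 0.84 on the log2 scale (SE 0.26, 95% interval 0.24 to 1.43) did not pass (limma adjusted p = 0.053), and it passed without wt replicate 2 (difference 1.08, adjusted p = 0.023).

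**Figure D1:**
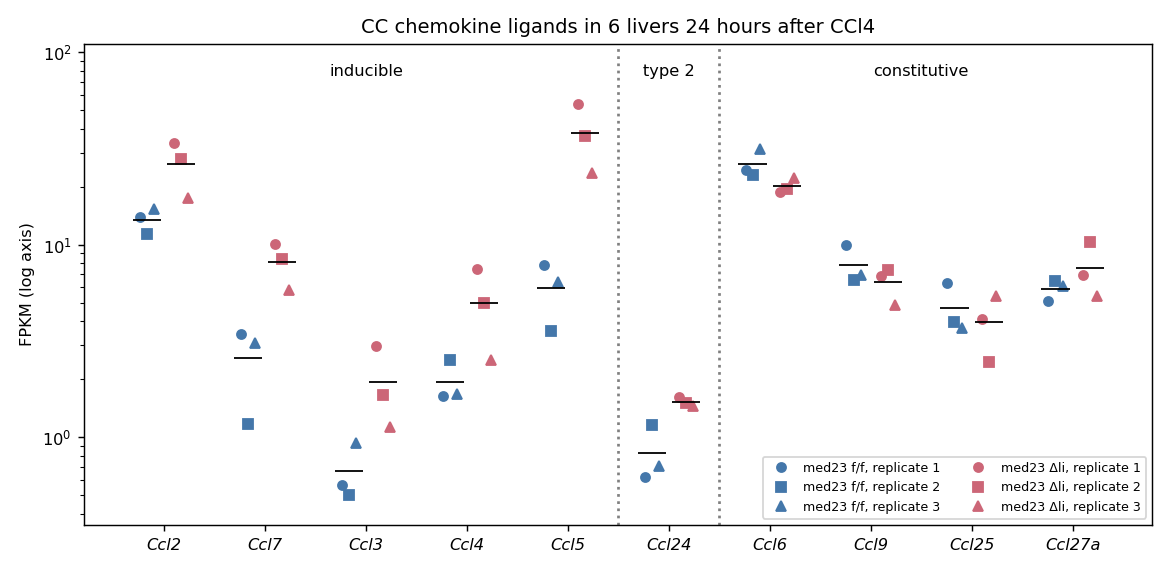
FPKM of the 10 CC ligands on a log axis, with 1 point per liver, the shape giving the replicate number and the bar the mean of 3 livers. *Ccl5* shows the widest gap, from 3.57 to 7.80 FPKM in wt (*med23* f/f) livers against 23.6 to 53.8 FPKM in *med23* Δli livers, while the groups of *Ccl9*, *Ccl25* and *Ccl27a* overlap.

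None of the constitutive ligands passed the test. *Ccl6*, the most abundant of the 10 in wt livers, was at 24.2, 22.8 and 31.4 FPKM there and at 18.8, 19.4 and 22.2 FPKM in *med23* Δli livers. Every *med23* Δli liver was below every wt liver, but the difference of −0.36 on the log2 scale (SE 0.16, 95% interval −0.73 to 0.00) did not pass the test (limma adjusted p = 0.134). *Ccl9* was at 9.91, 6.57 and 6.98 FPKM in wt livers and at 6.87, 7.39 and 4.86 FPKM in *med23* Δli livers. These ranges overlapped, with a difference of −0.29 on the log2 scale (95% interval −0.79 to 0.21, limma adjusted p = 0.364). The difference was −0.11 without wt replicate 1 and also −0.11 without *med23* Δli replicate 3.

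*Ccl25* was at 6.31, 3.98 and 3.67 FPKM in wt livers and at 4.09, 2.46 and 5.39 FPKM in *med23* Δli livers. The groups overlapped, and the difference was −0.25 on the log2 scale (95% interval −0.97 to 0.47, limma adjusted p = 0.591). Its lowest liver was *med23* Δli replicate 2, and without that liver the difference was 0.05 (adjusted p = 0.916). Its exons share 204 bases with those of *Elavl1* on the other strand, and the library kit does not mark strand, so reads there cannot be assigned to one of the 2 genes. *Ccl27a* was at 5.08, 6.46 and 6.06 FPKM in wt livers and at 6.96, 10.3 and 5.38 FPKM in *med23* Δli livers, a difference of 0.31 on the log2 scale (95% interval −0.23 to 0.85, limma adjusted p = 0.361). The groups overlapped, and without *med23* Δli replicate 2, the highest liver, the difference was 0.07 (adjusted p = 0.853). Of the 50-base words in its transcripts, 45.0% occur in near-identical genes (*Ccl27b*, *Gm13306*, *Gm20878*, *Gm21586* and *Gm21953*), so its level is uncertain. *Ccl27b* was listed at 0 in all 6 livers. The 8 members besides *Ccl9* and *Ccl27a* shared no such word, and *Ccl9* shared 1.97% of them.

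Taken over members, 5 of 10 were higher with no overlap between groups (*Ccl2*, *Ccl3*, *Ccl5*, *Ccl7* and *Ccl24*), beside 23.3% of all genes tested, and 1 of 10 was lower with no overlap (*Ccl6*), beside 20.4%. The exact two-sided permutation test of 3 against 3 livers cannot go below p = 0.1. It gave that value for these 6 ligands, and 0.2 for *Ccl4*, 0.5 for *Ccl9*, 0.7 for *Ccl25* and 0.4 for *Ccl27a*.

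**Figure D2:**
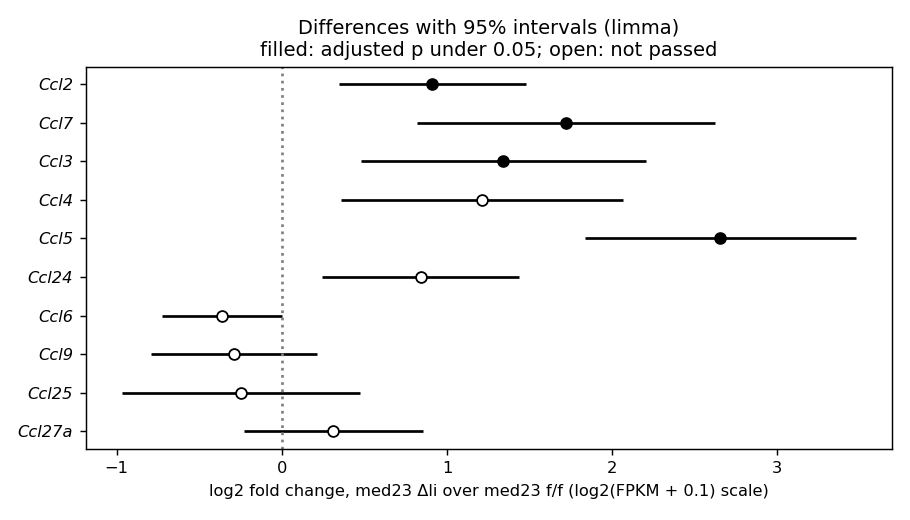
Log2 fold change of each ligand, *med23* Δli over *med23* f/f on the log2(FPKM + 0.1) scale, with its 95% interval from limma; filled points passed an adjusted p of 0.05. The 5 inducible ligands lie between 0.91 and 2.65 and the 4 constitutive ligands between −0.36 and 0.31, with intervals that include 0.

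The ligands were also ordered by their mean level in each group. In wt livers *Ccl6* led with a mean of 26.2 FPKM, followed by *Ccl2* at 13.5 FPKM. Both were separated from the next gene in the order. *Ccl9*, *Ccl5*, *Ccl27a* and *Ccl25* came next, from 7.82 to 4.65 FPKM, and each overlapped its neighbour in that order. *Ccl7* and *Ccl4* overlapped each other at 2.56 and 1.94 FPKM, and *Ccl24* and *Ccl3* did so at 0.829 and 0.665 FPKM. In *med23* Δli livers *Ccl5* led with 38.0 FPKM, ahead of *Ccl2* with 26.2 FPKM and *Ccl6* with 20.2 FPKM. The livers of these 3 ligands overlapped in that order, and all lay above *Ccl7* with 8.08 FPKM. The lower members then followed without a gap down to *Ccl24* with 1.52 FPKM.

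The 24 CC ligand genes of the table summed to 78.4, 65.4 and 80.5 FPKM in wt livers and to 151, 125 and 94.8 FPKM in *med23* Δli livers. The 10 ligands made up 91.9% to 97.0% of that sum in every liver. The inducible ligands held 34.8%, 29.3% and 33.8% of it in wt livers and 71.5%, 63.5% and 53.2% in *med23* Δli livers. *Ccl5* alone held 5.46% to 9.95% of the sum in wt livers and 24.9% to 35.7% in *med23* Δli livers. The share of *Ccl6* was 30.9% to 39.0% in wt livers and 12.5% to 23.4% in *med23* Δli livers. In FPKM, the sum of the 4 constitutive ligands was 45.6, 39.8 and 48.1 in wt livers and 36.8, 39.5 and 37.8 in *med23* Δli livers. The mean log2 level of the inducible ligands minus that of the constitutive ligands was −1.48, −1.72 and −1.25 in wt livers and 0.76, 0.27 and −0.34 in *med23* Δli livers. The groups did not overlap, and their means differed by 1.71. This score is a description with no test, since the classes were chosen with results of these data known.

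**Figure D3:**
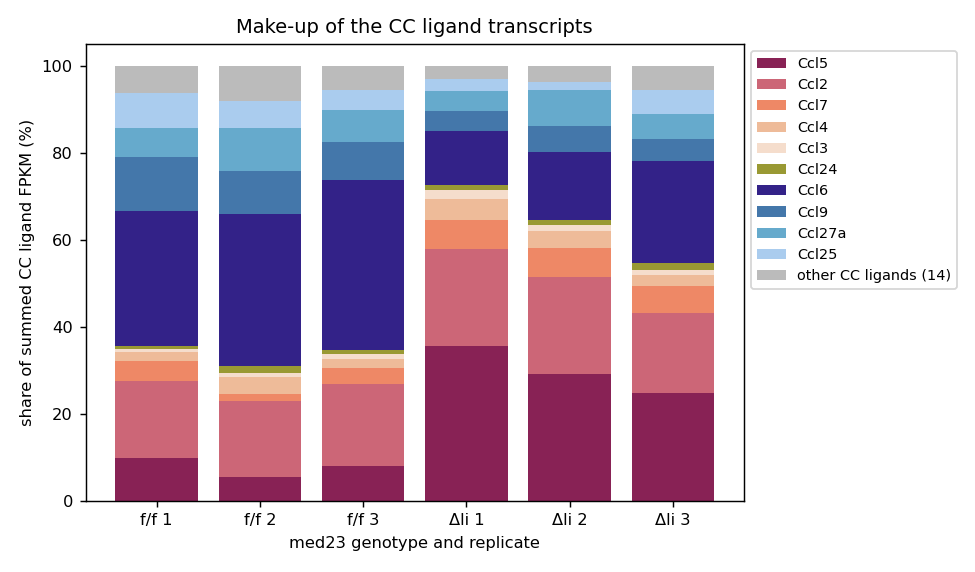
Share of each ligand in the summed FPKM of the 24 CC ligand genes, in percent, with 1 bar per liver. Reds are inducible ligands (29.3% to 34.8% in wt livers, 53.2% to 71.5% in *med23* Δli livers) and blues are constitutive ligands.

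Ratios of 2 ligands were taken within each liver, from FPKM + 0.1. The log2 ratio of *Ccl5* over *Ccl2* was −0.82, −1.64 and −1.24 in wt livers and 0.68, 0.39 and 0.44 in *med23* Δli livers. *Ccl5* was thus below *Ccl2* in every wt liver and above it in every *med23* Δli liver, with a difference of 1.74. *Ccl5* over *Ccl7* differed by 0.94 and *Ccl7* over *Ccl2* by 0.81, again with no overlap between groups. The latter was 0.46 without wt replicate 2 and 0.52 with a pseudocount of 1. Each of these 3 ratios reached the smallest p of the exact permutation test, 0.1 (two-sided, 0.17 after Benjamini-Hochberg adjustment over the 5 ratios examined). The neighbours *Ccl3* over *Ccl4* (difference 0.13, exact p = 0.8) and *Ccl9* over *Ccl6* (difference 0.07, exact p = 1.0) overlapped between groups, and both differences changed sign when single livers were left out.

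Within the *med23* Δli group the inducible ligands ranked the livers alike. *Ccl2*, *Ccl3*, *Ccl4*, *Ccl5*, *Ccl7* and also *Ccl24* were highest in replicate 1, intermediate in replicate 2 and lowest in replicate 3. This order was found in 6 of 10 ligands and in 20.9% of all genes tested. Among wt livers the orders differed between ligands and did not follow the classes. *Ccl2*, *Ccl3* and the constitutive *Ccl6* were highest in replicate 3 and lowest in replicate 2. *Ccl5*, *Ccl7* and the constitutive *Ccl9* were highest in replicate 1 and lowest in replicate 2. *Ccl4*, *Ccl24* and the constitutive *Ccl27a* were highest in replicate 2 and lowest in replicate 1.

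For each pair of genes, the 6 possible comparisons of 2 livers of the same group were checked for the same direction in both genes. The 10 pairs of inducible ligands agreed in 46 of 60 comparisons (76.7%), of which 30 of 30 were in *med23* Δli livers and 16 of 30 in wt livers. The 6 pairs of constitutive ligands agreed in 14 of 36 comparisons (38.9%), and the 20 mixed pairs in 58 of 120 (48.3%). A ligand paired with all other genes tested agreed in 46.4% to 56.5% of comparisons. The comparisons are not independent, because all genes share the same 6 libraries. The shared order in *med23* Δli livers rests on 3 animals, and no correlation was computed over them.

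**Figure D4:**
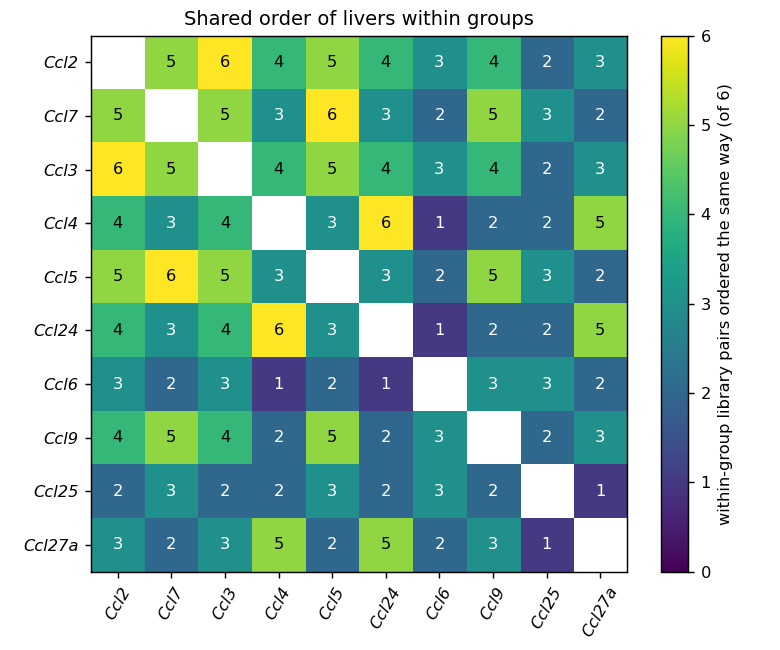
Number of the 6 within-group comparisons of 2 livers in which both ligands of a pair differ in the same direction. *Ccl2* with *Ccl3*, *Ccl5* with *Ccl7* and *Ccl4* with *Ccl24* agree in all 6, and the pairs of *Ccl6* with *Ccl4* and with *Ccl24* do so in 1 of 6.

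The genes with the most similar profiles over the 6 livers were found by the root mean square difference of log2 values. Each gene was first centred on its mean over the 6 livers. The difference between groups stays in these values, so near genes are largely those with a similar fold change. For *Ccl5* they were *Gm4952* (0.24), *4833411C07Rik* (0.31) and *Arhgap22* (0.35), where the median over all genes was 1.41. For *Ccl7* they were *Slc17a4* (0.14), *Lgals3* (0.16), which encodes galectin-3, and *Xkr9* (0.19), with a median of 1.01. For *Ccl2* they were *Rras2* (0.14), *Decr1* (0.14), a mitochondrial enzyme of fatty acid oxidation, and *Slc25a42* (0.15), with a median of 0.58. *Ccl3* was nearest to *Elf4* (0.23), *Impdh1* (0.24) and *Mtm1* (0.28), with a median of 0.83, and *Ccl4* to *Clec4e* (0.24), the macrophage receptor Mincle, *Cyp4a31* (0.30) and *Arl4d* (0.31), with a median of 0.80. No inducible ligand had another one among its 3 nearest genes. The nearest was *Ccl2*, at rank 10 in distance from *Ccl3* (0.31).

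Of the 10 ligands, 7 lie on chromosome 11 of mm10. *Ccl2* (chr11:82035571-82037453) and *Ccl7* (chr11:82045712-82047525), both on the plus strand, start 10.1 kb apart. The other ligand genes of that cluster, *Ccl11*, *Ccl12*, *Ccl8* and *Ccl1*, stayed under the filter, with no liver above 0.839 FPKM. The second cluster is 138.9 kb long, and the start site of *Ccl5* in it lies 1494.9 kb from that of *Ccl2*. It holds *Ccl5* (chr11:83525778-83530518, minus strand), *Ccl9* (chr11:83572919-83578636, minus), *Ccl6* (chr11:83587882-83593087, minus), *Ccl3* (chr11:83647844-83649355, minus) and *Ccl4* (chr11:83662584-83664683, plus), together with the noncoding *E230016K23Rik*, which reached at most 0.058 FPKM, and *Rpl9-ps1*, for which no value was used. *Ccl24* lies at chr5:135569937-135573049, *Ccl25* at chr8:4325210-4360020 and *Ccl27a* at chr4:41769467-41774247.

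Ligands with small differences lay between ligands with larger ones. *Ccl9* and *Ccl6*, with log2 differences of −0.29 and −0.36, lie between *Ccl5* (2.65) on one side and *Ccl3* (1.34) and *Ccl4* (1.21) on the other. *Ccl9* starts 48.1 kb from *Ccl5*, and *Ccl6* starts 56.3 kb from *Ccl3*. The 250 bases before the start of *Ccl3*, which rose, and of *Ccl6* and *Ccl9*, which did not pass the test, are shown. These neighbours have RefSeq promoter entries (GRCm38.p6, 5′ to 3′ on the minus strand), while *Ccl5* and *Ccl4*, which did not pass either, have none. Of the ligands without an entry, *Ccl5* rose and *Ccl4* did not pass. The start used is that of RefSeq, which for *Ccl3* lies before the GENCODE start given above, so that the few bases between both starts are not in the window. Capitals in *Ccl6* and *Ccl9* mark runs of at least 10 bases that both share, and in *Ccl3* the letters AGGTCA, the core of the element bound by ROR receptors.
Ccl3, chr11:83649379-83649628: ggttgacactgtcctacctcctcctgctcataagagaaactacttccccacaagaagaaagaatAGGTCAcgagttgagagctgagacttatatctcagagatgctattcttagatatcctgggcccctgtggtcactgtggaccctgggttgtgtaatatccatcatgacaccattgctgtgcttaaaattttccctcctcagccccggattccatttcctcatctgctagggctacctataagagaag
Ccl6, chr11:83593088-83593337: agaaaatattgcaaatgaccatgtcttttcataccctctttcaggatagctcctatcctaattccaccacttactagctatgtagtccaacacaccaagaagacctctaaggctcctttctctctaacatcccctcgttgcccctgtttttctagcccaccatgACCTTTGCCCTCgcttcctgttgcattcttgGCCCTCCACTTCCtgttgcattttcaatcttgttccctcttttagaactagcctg
Ccl9, chr11:83578637-83578886: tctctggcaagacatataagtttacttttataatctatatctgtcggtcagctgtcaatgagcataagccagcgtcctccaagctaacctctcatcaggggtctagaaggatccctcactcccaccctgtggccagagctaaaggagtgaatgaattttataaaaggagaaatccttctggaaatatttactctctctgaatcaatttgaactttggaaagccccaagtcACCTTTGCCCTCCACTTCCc
The 19 capital bases of *Ccl9* consist of 2 overlapping stretches, the longer of 13 bases, that lie apart in *Ccl6*, and *Ccl3* shared no run of 10 bases with *Ccl6*. *Ccl3*, *Ccl6* and *Ccl9* have 1 promoter entry each, *Ccl25* has 2 and *Ccl27a* has 3, so *Ccl25* and *Ccl27a* had more windows in which to match. AGGTCA, searched on both strands, was found in the windows of *Ccl3* and *Ccl6*, in 1 of 2 of *Ccl25* and in 1 of 3 of *Ccl27a*. It was not found in that of *Ccl9*, and it was found in 4607 of the 32851 promoters of the same length. TATAAA, the letters of a TATA box, found in 12.4% of promoters, matched in *Ccl9* and in 1 of 2 windows of *Ccl25*. TGANTCA, the AP-1 motif found in 6.75%, matched in *Ccl9* and in 1 of 3 windows of *Ccl27a*. A loose NF-kB motif, GGG and CC with 5 bases of any kind between them, was found in 45.8% of promoters. It matched in *Ccl9* and in 2 of 3 windows of *Ccl27a*. An interferon-response motif, GAAA and GAAA with 2 bases between them (2.98% of promoters), matched in no window of these genes. A C/EBP motif, TTGC and AA with 2 bases between them (9.56%), matched in 2 of 3 windows of *Ccl27a*. The bases flanking AGGTCA were not examined, and binding of ROR receptors at these windows was not tested. The promoters of *Ccl2*, *Ccl4*, *Ccl5*, *Ccl7* and *Ccl24* were not searched, so *Ccl3* is the one inducible ligand covered.

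Of the 14 other CC ligand genes in the table, 12 were under the filter and 4 of these were listed at 0 in every liver. *Ccl19* (log2 difference 0.13, limma adjusted p = 0.61) and *Ccl21a* (−0.76, adjusted p = 0.31), both attractants of Ccr7-bearing cells, were tested and did not pass. Of 10 CC receptors examined, only *Ccr2* passed the filter. *Ccr2* was at 1.49, 0.910 and 1.09 FPKM in wt livers and at 0.832, 0.961 and 1.07 FPKM in *med23* Δli livers. These ranges overlapped, and it did not pass the test (log2 difference −0.24, limma adjusted p = 0.50). None of the 3 atypical receptors tested, *Ackr1*, *Ackr3* and *Ccrl2*, which bind chemokines without G protein signalling, passed the test.

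Among 16 tested genes for inputs to these promoters, 3 rose and 1 fell, beside the 11.6% and 9.48% of all genes. *Nfkb2* (log2 difference 0.65, limma adjusted p = 0.048) and *Relb* (0.60, 0.047) encode subunits of noncanonical NF-kB, and *Cebpb* (0.73, 0.048) is a factor of the acute phase response. *Irf3*, an activator of interferon genes and *Ccl5*, fell by 0.66 (adjusted p = 0.011). *Il1b* (0.63, adjusted p = 0.12) and *Tnf* (0.30, 0.56), cytokines that switch on *Ccl2*, did not pass, and *Il6* and *Ifng* were under the filter. None of the 10 feedback genes of NF-kB, among them *Nfkbia* and *Tnfaip3*, passed the test, and their median log2 difference was 0.23. Of 5 tested type 2 genes, set beside *Ccl24*, none rose, and *Il4ra* (−0.51, adjusted p = 0.036) and *Mrc1* (−0.67, 0.015) fell.

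The ligands can come from hepatocytes, macrophages, lymphocytes or endothelium, so markers of these and other cells were examined, and their counts stand beside the 11.6% of all genes tested that rose and the 9.48% that fell. Of 8 pan-leukocyte markers none rose, and *Coro1a* fell (−0.58, limma adjusted p = 0.048). Their summed level was 85.3 to 94.8 FPKM in wt livers and 76.7 to 79.1 FPKM in *med23* Δli livers. Of 11 Kupffer cell and macrophage markers none rose and *C1qa* fell (−0.68, 0.042), and *Adgre1* was within the spread between livers. None of 9 monocyte markers and none of 5 tested neutrophil markers passed. Summed levels of the macrophage markers were 302 to 458 FPKM in wt livers and 326 to 334 FPKM in *med23* Δli livers. Those of the monocyte markers were 99.5 to 123 FPKM and 114 to 133 FPKM. Neutrophil marker sums were 43.8 to 137 FPKM and 41.5 to 101 FPKM.

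T cells and NK cells are classical sources of *Ccl5*. Of their 16 markers, only *Lck* passed the filter (−0.22, not called), and the 16 summed to 2.26 to 3.03 FPKM in wt livers and to 2.66 to 3.75 FPKM in *med23* Δli livers. *Ccl5* alone was at 3.57 to 7.80 FPKM and 23.6 to 53.8 FPKM in the same livers. *Cd3e*, *Cd8a* and *Ncr1* were below 0.3 FPKM in every liver. Within the *med23* Δli group, the T and NK cell sums were highest in replicate 1 and lowest in replicate 3. The same order within that group was found for the sums of the monocyte, endothelial and housekeeping lists and of the NF-kB feedback genes. *Gzma*, a granzyme of these cells, was at 0.0829, 0 and 0.1002 FPKM in wt livers and at 0.395, 0.303 and 0.524 FPKM in *med23* Δli livers. *Gzma* was below the filter and not tested, and is named after its values were seen. Among the other T and NK cell markers under the filter, *Cd3d*, *Cd4*, *Cd8b1* and *Nkg7* had lower means in *med23* Δli livers. The rest had higher means there, and none of these was tested. Eosinophil and mast cell markers, relevant to *Ccl24*, were all under the filter, and *Epx* and *Prg2* were listed at 0 in every liver. All 5 B cell markers in the table were under the filter as well.

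All 7 endothelial markers fell, the most *Clec4g* (−1.27, limma adjusted p = 0.0057), *Lyve1* (−1.05, 0.025) and *Stab2* (−1.05, 0.0057), and of 7 stellate cell markers *Des* fell (−0.56, adjusted p = 0.0497). None of 5 cholangiocyte markers passed. Against the same 11.6% and 9.48% of all genes, of 10 hepatocyte markers *Cyp2e1*, the enzyme that activates CCl4, rose by 1.26 (adjusted p = 0.0090) and *Serpina1a* fell by 0.70 (0.030). Of 5 tested adipocyte markers *Cidec* fell (−3.24, 0.016), while the other tested adipocyte markers did not pass. Of 5 tested erythroid markers *Hba-a1* rose (4.77, 0.041), from at most 0.0031 FPKM in wt livers, and its near-identical copy *Hba-a2* did not pass (−0.13, 0.89), so that reads could have been split between them. Erythroid sums overlapped, with 75.2 to 205 FPKM in wt livers and 109 to 186 FPKM in *med23* Δli livers. Among 9 housekeeping genes *Pgk1* (0.53) and *Rplp0* (0.56) rose and *Actb* fell (−1.09). The part of these markers in the ligand differences was not tested.

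**Figure D5:**
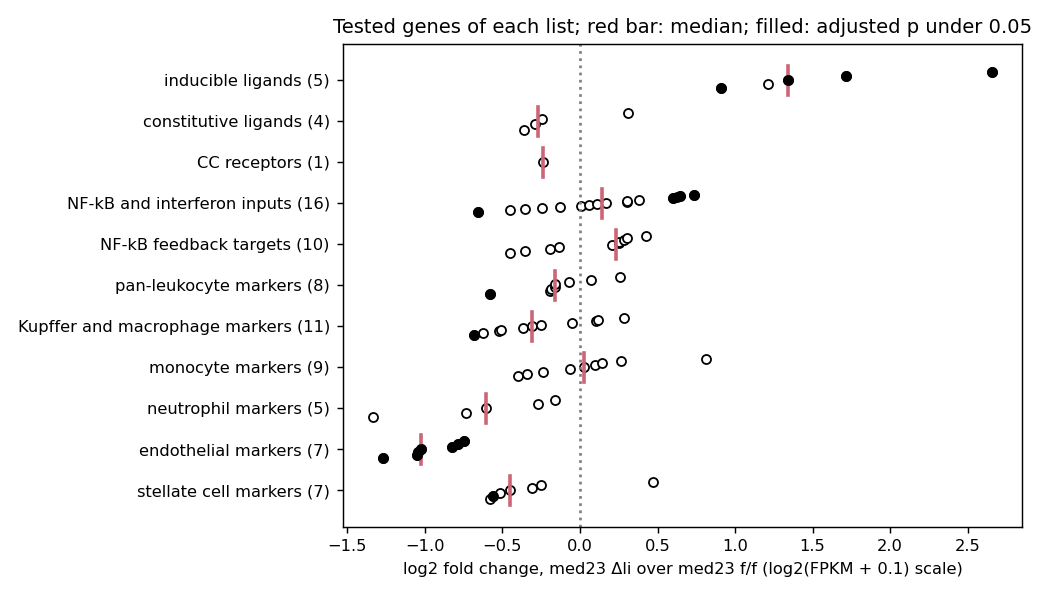
Log2 fold changes, *med23* Δli over *med23* f/f on the log2(FPKM + 0.1) scale, of the tested genes of each list, with the number tested in brackets, filled points for an adjusted p under 0.05 and a red bar at the median. The inducible ligands have a median of 1.34, while the medians of the leukocyte marker lists lie between −0.60 (neutrophil) and 0.03 (monocyte).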

How the data were processed

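Whole-liver RNA of 6 mice, 1 library each, was sequenced as paired reads. The authors aligned them to mm10 with TopHat and ran Cuffdiff; versions and annotation are not given in the sources used here. The deposited FPKM values per library were used. The authors' own fold changes, p-values and group values in the table were not used. Low FPKM values showed no step from which reads could be recovered, so the depth of each library is not known from the files and the spread between 3 livers is the only error.

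Genes that averaged 0.5 FPKM or more over the 6 libraries were compared as log2(FPKM + 0.1) with limma 3.58.1 in R 4.3.3 (eBayes with a trend, no block), with Benjamini-Hochberg adjustment over 11956 genes. This scale shrinks the fold changes of low genes. The fit was tested on simulated data. The members and gene lists were chosen with earlier results of these data known. Named genes were the 10 ligands, the genes passing in each list (all, or the 3 largest in each direction where more than 5 passed), the genes of both chromosome 11 intervals, the 3 nearest profiles per inducible ligand, and *Med23*. Some genes and a sequence are not reported here. Genes of a list named beyond these, without passing, were chosen after their values were seen. The fold changes and counts of calls of the ligands were repeated with other pseudocounts (0.01 and 1), without the filter or with it at 1 FPKM, after centring on library medians, after quantile normalization, with robust or untrended eBayes, with replicate numbers as a block and without each liver in turn. The ratios were repeated with the other pseudocounts and without each liver, and the score of inducible against constitutive ligands also with other class memberships. The other lists, *Med23* and the shared order of livers had no alternative.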

Additional observations from a re-analysis of the deposited data

How the results depend on the processing

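Of the 4 ligands that rose, *Ccl2* and *Ccl3* kept their call in 9 of 15 alternatives each, *Ccl7* in 13 and *Ccl5* in 15, and no difference of the 4 changed sign. Without the filter on low values 2 ligands rose (*Ccl5* and *Ccl7*), and over all genes 1048 rose and 857 fell. With a pseudocount of 1, without a trend or with robust eBayes, *Ccl24* was added (adjusted p = 0.046, 0.040 and 0.048), although its difference was smaller with a pseudocount of 1 (0.47). Over all genes 1422, 1237 and 1409 rose in these settings, in the same order, and 1147, 1068 and 1164 fell. With 1 liver left out, 1 to 5 ligands rose, none fell, and over all genes 401 to 1750 rose and 349 to 1429 fell. Only *Ccl5* was called without *med23* Δli replicate 1 and without replicate 2. The difference of *Ccl25* ranged from −0.50 to 0.05, the latter without *med23* Δli replicate 2.

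The ratio of *Ccl3* over *Ccl4* became −0.17 with a pseudocount of 1, and ranged from −0.22 to 0.46 with 1 liver left out. *Ccl9* over *Ccl6* ranged from −0.13 to 0.33 with 1 liver left out, among them −0.04 and −0.07 without *med23* Δli replicates 1 and 2. The inducible minus constitutive difference stayed between 1.42 and 2.0 in the alternatives run for it, which were other pseudocounts, other class memberships (*Ccl24* in either class, *Ccl27a* or both *Ccl6* and *Ccl9* left out) and each liver left out.

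With the replicate number as a block, 809 genes rose and 614 fell, and 2 ligands rose (*Ccl5* and *Ccl7*). The deviations of same-numbered livers had correlations of −0.02, −0.05 and −0.12, and those of differently numbered livers ranged from −0.089 to 0.115. With 3 livers a group these values cannot tell whether the numbers pair the livers. The causes of these shifts were not tested. With 3 livers a group and no read counts, low ligands such as *Ccl3* and *Ccl24* carry a counting error that cannot be given.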
